A study of Homo sapiens and synthetic construct with 14 samples.

Results

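Windows of 200 bases that carry an RE1 motif and yet gave high reporter RNA in each of 4 human cell lines are described here. They come from WGREST, a genome-wide library of RE1 windows in which each window was placed in the silencer position of a reporter plasmid beside 1 of 5 enhancers (En02, En09, En11, En19 and En21). The activity of a window beside 1 enhancer is the log2 ratio of summed RNA to summed plasmid barcode counts, minus the median of the same ratio over random elements beside that enhancer in that line, so that 0 is the median random element. Its activity in a line is the mean over the 5 enhancers. A native window was kept when its activity was at least 1.5 in all 4 lines. Of 8436 native motif windows listed, 7511 had a mean plasmid count of at least 20 beside all 5 enhancers, and 351 of these (4.67%) met the rule. The windows were thus chosen by their native activities in these same libraries, and native values are given as a description, with no test. Tests below use constructs that the rule did not read: the scrambled and alternate-allele versions of the same windows, and other reporter libraries.

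The RE1 motif is the binding site of REST, a zinc finger protein that recruits corepressor complexes with histone deacetylases. REST is known for keeping genes of neurons silent in cells that are not neurons, and RE1 sites are the usual example of a silencer. Windows taken from the genome around a motif also hold flanking bases, which can bind other proteins. In this assay, called MPRAduo, a plasmid carries an enhancer and a test element together with a barcode, and the barcode counts in the messenger RNA of the GFP reporter are set against those in the plasmid pool.

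The library was introduced by electroporation into GM12878, a lymphoblastoid B-cell line, HepG2, a liver cancer line, K562, a chronic myeloid leukaemia line, and SK-N-SH, a neuroblastoma line. Cells recovered for 24 hours before RNA was purified. The labels name no other treatment, and the reporter is on a plasmid, not in the genome. Values printed in sets of 4 run from GM12878 through HepG2 and K562 to SK-N-SH unless lines are named. Each line has 4 RNA libraries, called biological replicates by the study, and all 4 lines are set against the same 4 plasmid libraries. Total counts ran from 50184575 to 94912250 per RNA library and from 35194052 to 54483871 per plasmid library. A construct of the 351 windows had a median of 42 barcodes and a median mean plasmid count of 189.5, against a median of 45 barcodes for constructs of all measured motif windows.

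The window names give coordinates without a genome build. They were compared with GRCh38, the assembly at hand: windows ran past the end of 13 of the 24 chromosomes, and 24.8% of 3745 reference alleles in the names equalled the GRCh38 base. Coordinates are therefore printed as the names give them, with no sequence and no gene annotation.

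The activity of the 351 windows was lowest in GM12878 and highest in K562. Its medians were 2.05, 3.11, 3.63 and 3.32, with highest values of 5.19, 5.87, 7.16 and 6.27. All measured motif windows had medians of −0.15, −0.17, −0.09 and −0.30. The order of lines was not particular to the 351 windows. The 86 positive controls had medians of 1.69, 2.37, 2.52 and 2.48, also lowest in GM12878 and highest in K562. The SD of 721 random elements was 0.67, 0.94, 1.13 and 1.03, again smallest in GM12878 and largest in K562. GM12878 was the line of lowest activity for 326 of the 351 windows, HepG2 for 10, K562 for 8 and SK-N-SH for 7. K562 was the line of highest activity for 229 windows, SK-N-SH for 85 and HepG2 for 35. Only chr12:113344589-113344789 and chr11:64420584-64420784 were highest in GM12878, at 3.97 and 3.11. Both were picked out after their values were seen. The scrambled version of the first was highest in GM12878 too, at 3.59 against 2.52, 1.90 and 2.74 in the other lines.

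The threshold of 1.5 stands at different places in the 4 lines. The 95th percentile of 721 random elements was 1.35, 1.87, 2.25 and 2.14. Taken line by line, 374, 961, 1137 and 911 motif windows reached 1.5. A further 326 motif windows missed the rule in GM12878 alone, against 2, 4 and 1 that missed it in another line alone, so GM12878 set the rule for most windows. The same threshold in all 4 lines was met by 23 of 721 random elements (3.19%), by 132 of 3951 windows of the library without a motif (3.34%) and by 44 of 86 positive controls (51.2%).

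At the threshold the windows inside and outside were alike in value. The 3 windows just inside were lowest in GM12878, with 1.502 at chr17:31203558-31203758, 1.504 at chr1:230203937-230204137 and 1.505 at chr5:112312446-112312646. The first of these read 1.81, 0.53, 1.36 and 1.63 in the 4 GM12878 libraries, so 1 of its libraries lay far under the threshold. The 3 just outside were chr17:14212473-14212673, chr10:76995641-76995841 and chr3:196230259-196230459, with 1.499, 1.499 and 1.494 in GM12878. Read library by library, 263, 338, 345 and 349 of the 351 windows had at least 1.5 in every single library of the line.

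The order of windows was shared between lines. Pearson's r of native activity over the 351 windows was 0.74 between GM12878 and HepG2, 0.75 between GM12878 and K562 and 0.81 between GM12878 and SK-N-SH. It was 0.85 between HepG2 and K562, 0.83 between HepG2 and SK-N-SH and 0.85 between K562 and SK-N-SH. These are descriptions over windows, which share the plasmid counts and were chosen at a common threshold. Each value was below that over all 7511 motif windows, where r ran from 0.84 to 0.92.

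The effects beside single enhancers make up the activity that the rule read, and are given as a description. Activity was seen beside each enhancer, and its difference from random elements was largest beside enhancers of low output. The median random element in K562 had a log2 ratio of RNA to plasmid of −4.30 beside En02, −3.06 beside En11 and −1.11 beside En19, against 0.61 beside En09 and 1.53 beside En21. In K562 the median effect of the 351 windows was 5.70 beside En02, 4.46 beside En11, 3.62 beside En19, 2.67 beside En09 and 2.53 beside En21. En02 also gave the largest median in HepG2 (4.63), SK-N-SH (4.58) and GM12878 (2.78), and En21 the smallest in each of these lines (1.92, 2.18 and 1.84). The 95th percentile of random elements in K562 was 3.25 beside En02 and 1.98 beside En21. Before subtraction of the random median, the log2 ratio of RNA to plasmid of the same windows in K562 was 1.39 beside En02 and En11, 2.50 beside En19, 3.29 beside En09 and 4.06 beside En21. Constructs with En02 and En11 thus stayed under those with En21 in output, while their difference from random elements was larger. The largest effect stood beside En02 for 223, 273, 288 and 272 of the windows.

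The rule read the mean of the 5 enhancer effects, so high effects beside single enhancers partly follow from the choice. Counts of such effects are a description, and the share over all motif windows is not given here. Nearly all windows were above the random median beside every enhancer, namely 351, 351, 350 and 350 of 351. The exception was chr12:76371854-76372054, which was picked out for it: its effect beside En09 was −0.59 in K562 and −0.11 in SK-N-SH, while its activity over the 5 enhancers was 1.77 and 2.12.

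The 10 windows with the highest activity in their lowest line reached at least 3.82 there. The first was chr6:37400896-37401096. Its 4 GM12878 libraries read 5.14, 5.35, 5.24 and 5.19, and its K562 libraries 6.65, 6.26, 6.17 and 6.09. Over summed libraries its activities were 5.19, 5.27, 6.38 and 5.99, closer together than for the other windows of the 10. Beside single enhancers in K562 it ran from 3.58 beside En21 to 9.51 beside En02.

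The next windows were a pair that overlap by 160 bases, chr2:122513076-122513276 and chr2:122513036-122513236. The first had the highest native activity of all in HepG2 (5.87), K562 (7.16) and SK-N-SH (6.27). Its K562 libraries read 7.46, 7.02, 6.92 and 6.87, and its effect beside En02 was 10.37. The second read 7.19, 6.76, 6.63 and 6.56 in the same libraries. In GM12878 the activities of the pair were 5.10 and 4.82. Both windows therefore stood near the top in every line, as the same stretch of genome measured through separate oligos.

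chr7:131012544-131012744 and chr4:152020693-152020893 followed, with 4.64 and 4.56 in GM12878 and 6.54 and 5.99 in K562. chr19:6199545-6199745 lay further apart between lines, with 4.10, 5.02, 6.29 and 6.07. The 10 were completed by chr2:233561970-233562170 (3.94 in GM12878), chr10:7860418-7860618 (3.85), chr11:46264854-46265054 (3.83) and chr6:3259120-3259320 (3.82). Library SDs of these 10 windows were small beside their activities, the widest being 0.29 for chr2:122513036-122513236 in K562.

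A scrambled version, named as such in the tables, was listed for 238 of the 351 windows and measured beside all 5 enhancers for 211. The other 140 windows had no measured partner and enter no comparison with one. The sources used here do not say which bases were rearranged.

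Most scrambled versions were active too. Their median activities were 2.08, 3.08, 3.60 and 3.27, and none of the 211 was below the random median in any line. All 4 lines were at or above 1.5 for 174 of them (82.5%), against 63 of 4675 scrambled versions of the other motif windows (1.35%). Those other windows had missed the rule in their native version, so the 2 shares are a description. The 95th percentile of random elements was exceeded by 190, 193, 181 and 189 of them.

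Each scrambled version was tested against the level of random elements with edgeR's quasi-likelihood test over the 5 enhancers, adjusted over all 21378 elements. All 211 were called higher in GM12878, K562 and SK-N-SH and 210 in HepG2, with none called lower. The background of such calls was wide: 30.8%, 41.9%, 46.5% and 43% of all elements, and among random elements themselves 27.9%, 35.5%, 39.9% and 40.8%. Over all scrambled versions it was 35%, 45.7%, 52.5% and 50.4%. The 5 enhancer columns of a library entered this fit as separate columns, although they share a library, so its p-values are too small. With 1 value per library, the mean over enhancers, an alternative added after the data had been seen, limma called 205, 210, 211 and 211 of the 211, against 24.6%, 37.7%, 44.9% and 41.6% of all elements. A call by itself thus says little, and the sizes say more: the fitted median was 2.13, 3.09, 3.61 and 3.29 for the 211, and 0.09, 0.10, 0.21 and 0.14 for all 5199 scrambled versions.

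The scrambled version not called in HepG2 was that of chr9:132625540-132625740, picked out for that reason. It was fitted at 0.07 there (SE 0.11, edgeR adjusted p = 0.54) and at 0.44, 0.61 and 0.84 in the other lines. The native window had 1.73, 1.59, 2.14 and 1.90, and lay above its scrambled version by 1.07 to 1.54.

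The highest scrambled version was that of chr2:122513036-122513236. Its K562 libraries read 7.46, 7.00, 6.90 and 6.80, and the fit gave 7.14 above random elements there (SE 0.10). In GM12878 its libraries read 4.89, 5.09, 5.20 and 4.85. Native minus scrambled activity was −0.15, −0.24, −0.25 and −0.26, a small difference in each line beside the level itself.

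The window that overlaps it gave another picture. The scrambled version of chr2:122513076-122513276 read 4.48, 4.41, 4.38 and 4.29 in K562, well apart from the native libraries of the same line. It was fitted at 4.47 above random elements in K562 (SE 0.05), and at 2.21, 3.86 and 3.31 in the other lines. The native window exceeded it by 2.94, 2.00, 2.70 and 2.98, beside all 5 enhancers in every line. This was the largest increase of native over scrambled among the 211, at 2.66 as the mean of the lines. Even so, the scrambled version kept an activity above 2 in every line.

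Lines differed among the scrambled versions as they did among the native windows. The edgeR F test of RNA between the 4 lines called 207 of the 211, where 82.1% of all elements and 79.4% of all scrambled versions were called. With 1 value per library limma called 208, and 71.1% of all elements. GM12878 was the lowest line for 196 of the 211, and K562 the highest for 135, SK-N-SH for 54 and HepG2 for 21. The 4 without a call were those of chr9:117373927-117374127, chr13:96329489-96329689, chr9:138606389-138606589 and chr9:71650673-71650873, with edgeR adjusted p of 0.91, 0.82, 0.078 and 0.099. The first of these was fitted at 2.13, 2.14, 2.24 and 2.24, a nearly even level. Median effects of scrambled versions in K562 were 5.38 beside En02, 4.38 beside En11, 3.57 beside En19, 2.60 beside En21 and 2.58 beside En09.

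The difference of native and scrambled activity holds the native values that chose the windows, and is given as a description. Its medians over the 211 windows were 0.12, 0.05, 0.07 and 0.09, with SDs over windows of 0.52, 0.55, 0.67 and 0.66. Over all 4886 motif windows with a measured scrambled version the medians were −0.15, −0.21, −0.21 and −0.29. The native window was below its scrambled version at 85 of the 211 in GM12878 (40.3%), at 94 in HepG2 (44.5%) and at 90 in each of the other lines (42.7%). Over all 4886 windows these shares were 66.4%, 67.7%, 67% and 71.8%. A choice by high native level moves this difference upward by itself, so the gap to the library as a whole is not read further.

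For most of the 211 the difference was small. It lay within 0.5 of 0 in all 4 lines for 113. It was negative in all 4 lines for 53 windows and positive in all 4 for 91. It exceeded 1 in all 4 lines for 8, and no window was below its scrambled version by over 1 in all 4. Pearson's r of native with scrambled activity over the 211 windows was 0.75, 0.79, 0.83 and 0.79. These points share libraries and, apart from the rearranged bases, their sequence.

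The size of the difference was shared between lines. Pearson's r of the difference between lines over the 211 windows ran from 0.77 (GM12878 and HepG2) to 0.88 (K562 and SK-N-SH), a description over windows whose plasmid counts are shared by both lines. Beside the 5 enhancers the median difference was between 0.04 and 0.18 in every line.

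The 5 largest decreases of native against scrambled, by the mean of the lines, were windows in which the native version was active but less so. At chr15:73075827-73076027 the SK-N-SH libraries read 2.28, 2.27, 2.34 and 2.50 for the native window and 4.07, 4.09, 3.97 and 3.97 for the scrambled one. The mean difference over libraries was −1.68 ± 0.16 (SD, n = 4). In HepG2 it was −1.58 ± 0.18, in K562 −0.71 ± 0.12 and in GM12878 −0.50 ± 0.23 (each SD, n = 4).

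At chr9:100000492-100000692 the decrease was widest in K562. Native libraries there read 3.40, 3.28, 3.23 and 3.18 and scrambled ones 4.99, 4.74, 4.67 and 4.62, a mean difference of −1.48 ± 0.07 (SD, n = 4). It was −1.21 ± 0.06 in SK-N-SH, −0.68 ± 0.23 in GM12878 and −0.47 ± 0.04 in HepG2. Beside En02 in K562 the native window had 4.58 and the scrambled one 7.45, and beside En11 3.44 and 6.24, while beside En21 they had 2.88 and 2.91. The decrease in K562 was thus widest beside the enhancers of lowest output.

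At chr12:125389352-125389552 the SK-N-SH libraries read 1.70, 1.75, 1.67 and 1.82 for the native window and 3.19, 3.15, 3.20 and 3.21 for the scrambled one. The mean difference was −1.45 ± 0.07 in SK-N-SH and −0.53 ± 0.41 in GM12878 (SD, n = 4), so the GM12878 value was little larger than its spread. At chr10:13628865-13629065 it was −1.32 ± 0.10 in K562 and between −0.88 and −0.59 in the other lines, and the native window was lower beside all 5 enhancers in every line. At chr3:180630421-180630621 it was −1.12 ± 0.07 in SK-N-SH, −1.06 ± 0.06 in K562, −1.03 ± 0.11 in HepG2 and −0.21 ± 0.06 in GM12878.

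The scrambled versions of these 5 windows helped to pick them, so their levels are a description. In K562 they were fitted at 3.90 (chr15:73075827-73076027), 4.85 (chr9:100000492-100000692), 4.06 (chr12:125389352-125389552), 4.32 (chr10:13628865-13629065) and 3.89 (chr3:180630421-180630621), with SEs of 0.06 to 0.08. In GM12878 they were between 2.23 and 2.52.

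After chr2:122513076-122513276, the largest increases of native over scrambled were windows whose scrambled version was far lower. At chr10:122610613-122610813 the SK-N-SH libraries read 3.30, 3.34, 3.30 and 3.28 for the native window and 0.47, 0.40, 0.37 and 0.41 for the scrambled one. The mean differences over libraries were 1.28 ± 0.64, 2.29 ± 0.11, 2.03 ± 0.12 and 2.89 ± 0.05 (SD, n = 4), with a wide spread in GM12878. The scrambled version was fitted at 0.46 above random elements in SK-N-SH (SE 0.08), and at −0.23 when libraries were scaled on summed random counts, so its sign there turned with the scaling. With the same scaling the calls in GM12878 (0.28) and HepG2 (0.05) were lost, and the GM12878 call was also lost with 1 value per library (0.45).

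chr11:64420584-64420784 was one of the 2 windows highest in GM12878. Its native libraries there read 3.25, 2.88, 3.27 and 3.13 and its scrambled ones 0.27, 0.13, 0.25 and 0.28, a mean difference of 2.90 ± 0.13 (SD, n = 4). The difference was 2.33 ± 0.09 in K562, 1.45 ± 0.20 in SK-N-SH and 1.12 ± 0.11 in HepG2. Beside En21, the enhancer with the smallest median effect, this window had its largest GM12878 effect, 5.87. Its scrambled version was fitted at 0.25 in GM12878 (SE 0.08), and at 0.91, 0.47 and 0.60 in the other lines. With summed random counts it turned to −0.07 in GM12878, −0.45 in K562 and −0.09 in SK-N-SH. The call in GM12878 was also lost without plasmid library 1 (0.22), without plasmid library 3 (0.21), without En02 (0.09) and with TMM (0.14), and that in K562 without En02 (0.03).

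Together with chr9:132625540-132625740 these were the 3 windows whose scrambled version fell under 1.5 in all 4 lines. Of the other increases, chr3:177077697-177077897 had native K562 libraries of 5.83, 5.70, 5.67 and 5.65 against 3.25, 3.26, 3.16 and 3.28 scrambled, a difference of 2.47 ± 0.09 (SD, n = 4). Its scrambled version kept 4.00 in HepG2 and 3.30 in K562. chr11:62554815-62555015 had its largest difference in HepG2, 2.46 ± 0.35, and its smallest in GM12878, 0.73 ± 0.24 (SD, n = 4). Its native effects in HepG2 lay close together, from 3.88 beside En21 to 4.75 beside En02.

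Alternate-allele versions, in which 1 base of the window is replaced by an alternate allele, measured the same windows through separate oligos with their own barcodes. For the 351 windows 174 were listed and 158 measured, from 122 windows. All 158 were called higher than random elements in every line by edgeR, where 27%, 37.5%, 44% and 39.4% of all alternate-allele versions were called. Their fitted medians were 2.23, 3.26, 3.95 and 3.59. At least 1.5 in all 4 lines was reached by 147 of the 158 (93%), against 14 of 3120 alternate-allele versions of other motif windows (0.449%). The rule had not read these constructs, but each differs from its chosen native window by 1 base and was measured in the same libraries. The other motif windows had missed the rule in their native version, so these shares are a description.

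Most single alleles moved the windows little. The median of alternate minus native activity was −0.02 in GM12878 and −0.04 in each other line, and the SD over the 158 versions was 0.24, 0.19, 0.22 and 0.21. Within 0.5 of the native window lay 149, 155, 151 and 151 versions. A change is written as reference base, distance in bases from the window start, and alternate base. C107T in chr6:37400896-37401096 had activities of 5.19, 5.34, 6.35 and 5.96, and differed from the native window by at most 0.06. G86C in chr4:152020693-152020893 lay 0.55 below the native window in GM12878 and 0.36 to 0.46 below it in the other lines. Over the 158 versions the difference ran from −1.08 to 0.54 in GM12878, from −0.56 to 0.94 in HepG2, from −0.67 to 0.76 in K562 and from −0.79 to 1.05 in SK-N-SH. The highest value of each line belonged to C93G in chr10:91174389-91174589, and the lowest in GM12878 to C122G in chr5:178977592-178977792. Both were picked out after their values were seen.

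The alternate-allele versions were not read by the rule, but differ from the chosen windows by 1 base. A choice by high native level can therefore move alternate minus scrambled upward too. The counts of these versions were tested against those of the scrambled version, a test added after the data had been seen. It covered 144 versions of 110 windows, and versions of 1 window share a scrambled partner. The counts called higher were 23, 39, 42 and 47, and those called lower 29, 47, 51 and 52 (edgeR, adjusted over all 3263 pairs, of which 3262 could be tested in GM12878). With 1 value per library limma called 15, 25, 41 and 41 higher and 15, 37, 54 and 44 lower, where 1.81%, 9.35%, 16.6% and 13.9% of all pairs were called higher and 10.3%, 30.8%, 45.5% and 51.5% lower. By edgeR, over all pairs the shares called higher were 3.77%, 13.9%, 19.2% and 15.8%, and those called lower 18.2%, 40.9%, 48.9% and 54.5%. The fit of 1 pair in GM12878, C84T in chr4:152020693-152020893, did not converge and gave no p.

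By edgeR, lower calls outnumbered higher ones in every line, while with 1 value per library the counts in GM12878 were equal. Over all pairs lower calls also outnumbered higher ones in every line, and by a wider margin. The edgeR shares were 18.2% lower against 3.77% higher in GM12878, and 54.5% against 15.8% in SK-N-SH. The medians of alternate minus scrambled were −0.02, −0.04, −0.05 and −0.02, and over all pairs −0.15, −0.19, −0.21 and −0.29. For the 110 windows concerned, the median of native minus scrambled was 0.07, 0.01, 0.02 and 0.00. In all 4 lines 17 versions were called higher by edgeR and 23 lower, and 23 were called in neither direction in any line. The shares of all pairs called in all 4 lines or in none are not given here, so these counts are a description.

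Alternate-allele versions of windows already named gave the following values. Windows named for a large increase or decrease were picked by their native and scrambled values, so their differences from the same scrambled construct are descriptions. T112C in chr2:122513076-122513276 was above the scrambled version by 3.22 in GM12878 (SE 0.14), and by 2.14, 2.82 and 3.07 in the other lines. T80G in the overlapping chr2:122513036-122513236 was not separated from its scrambled version in GM12878, HepG2 or K562 (−0.08, −0.15 and −0.17, with SEs of 0.10, 0.08 and 0.13), and differed by −0.20 in SK-N-SH (SE 0.08, edgeR adjusted p = 0.029), a call lost with 1 value per library (limma adjusted p = 0.22). C107T in chr6:37400896-37401096 was above its scrambled version by 1.09, 1.495, 1.56 and 1.44.

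At chr9:100000492-100000692, 3 alternate alleles were measured, and all lay below the scrambled version in all 4 lines. A78C differed from it by −1.55 in K562 (SE 0.07), T80A by −1.68 and C122A by −1.47. In GM12878 the same alleles differed by −0.67, −0.69 and −0.91. T106A in chr10:13628865-13629065 was lower by 1.17 in K562 (SE 0.08) and by 0.41 in GM12878 (SE 0.06). C79T in chr3:180630421-180630621 differed by −0.22 in GM12878 (SE 0.08) and by −0.97, −0.93 and −1.02 in the other lines.

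The 351 windows cover 341 separate places, since 10 pairs of them overlap, by 72 to 178 bases. Windows of such a pair differed in activity by medians of 0.30, 0.34, 0.49 and 0.44. Among the closest were chr6:127588301-127588501 and chr6:127588323-127588523, with 2.61 and 2.69 in GM12878 and 3.84 each in HepG2. The widest apart were chr5:178977548-178977748 and chr5:178977592-178977792, which share 156 bases and had 5.38 and 2.79 in K562 and 3.23 and 1.76 in GM12878. The windows of this pair, the widest apart of the 10, differed by 1.47 to 2.59, depending on the line.

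In 35 pairs, 34 of the windows are overlapped by another measured window that did not meet the rule. The other window was above the random median in all 4 lines in 33 of the 35 pairs, and missed the rule in GM12878 alone in 19. Of all 7511 motif windows, 326 missed the rule in GM12878 alone. The share of all motif windows above the random median in all 4 lines is not given here, so the counts of pairs are a description. A close case was chr5:112312446-112312646, whose neighbour starts 1 base further on: the 2 windows had 1.51 and 1.25 in GM12878 and 3.06 and 2.90 in K562. Here the rule separated values that lie close together.

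Other neighbours were far lower. chrX:152127407-152127607 had 3.78, 4.46, 5.15 and 5.21, and chrX:152127497-152127697, with 110 bases in common, 0.27, 1.51, 1.76 and 1.74. chr3:50284245-50284445 had 3.39 in K562 and 2.46 in HepG2, against 0.80 and −0.06 for chr3:50284309-50284509, which shares 136 bases with it. chr17:72848613-72848813 had 3.98 in K562, and chr17:72848530-72848730, with 117 bases in common, had 0.28, −0.13, 0.18 and 0.01. The scrambled version of that neighbour was at 0.63, 0.35, 0.27 and 0.88.

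chr17:25680672-25680872 had 5.48 in K562 and 4.79 in HepG2, and chr17:25680613-25680813, which shares 141 bases, 1.72 and 1.97. The scrambled version of the latter had 4.32 in K562 and 2.68 in HepG2. These overlaps were picked out after their values were seen.

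The windows were spread over all chromosomes except Y, which had 2 measured windows. The share of measured motif windows that met the rule was 4.67% in all, and among chromosomes with more than 300 measured windows it ran from 2.13% on chromosome 16 (7 of 329) to 6.43% on chromosome 12 (24 of 373). Chromosome 1 held the most, 34 of 761.

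The benchmark library, measured only in GM12878, from other plasmid and RNA libraries, holds 2 of the 351 windows. The series calls the library of run1 SE and that of run2 ES, and each has 20 enhancers with enough random elements for scaling. The column headings of these tables run opposite to the authors' deposited fold change, with which the log2 ratio of the columns headed plmd to those headed cDNA correlated at 0.993 (run1) and 0.999 (run2) over constructs. The direction of that fold change was used, and with the headings taken literally every sign below turns.

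chr19:2169150-2169350 was called higher than random elements in run1 at 16 of 20 enhancers (median 1.60) and in run2 at 20 of 20 (median 2.42; edgeR, adjusted over all pairs of a run). Beside En02 it was at 1.60 in run1 (SE 0.28, adjusted p = 0.0042) and 2.70 in run2 (SE 0.12, adjusted p = 1.3e-12). chr19:54448797-54448997 was called at 8 of 20 in run1 (median 0.64) and at 19 of 20 in run2 (median 1.80). In run1 it read −0.41 beside En19 and 1.30 beside En11, the latter with an adjusted p of 0.0061 by edgeR. Neither window was called lower beside any enhancer in either run, though the share of all pairs called lower is not given here.

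Calls of this kind made up 8.89% of all pairs and 6.86% of pairs with REST elements in run1, and 27.2% and 15.6% in run2. These percentages are the background of the counts above. The median REST element was at −0.17 in run1 and −0.43 in run2. Both windows thus lay above the median REST element in a library that played no part in choosing them, though both tables are from GM12878 and share the cell line with part of the rule.

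Benchmark elements of the YY1 class overlapped 3 more of the windows. The element sharing 186 bases with chr19:572552-572752 was called higher at 1 of 20 (run1, median 0.33) and at 14 of 19 enhancers (run2, median 1.15). That sharing 165 bases with chr19:1624513-1624713 was called at 3 of 20 (median 0.65) and at 18 of 19 (median 1.83). The element sharing 47 bases with chr19:3985276-3985476 was called at 7 of 19 (median 0.54) and at 8 of 17 (median 0.96). None of the 3 was called lower beside any enhancer. No share of calls among all elements of the YY1 class is given here, so these counts are a description.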

How the data were processed

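Per the file headers, the WGREST and benchmark tables hold raw barcode counts that the authors deposited per construct for 4 RNA and 4 plasmid libraries, with the number of barcodes. The deposited mean plasmid signal is the mean of 4 count columns. The authors' log2 fold change was used only to check direction, and the score deposited beside it, its standard error, was not used further. No aligner, counting tool or genome build is given in the sources used here. Data of the noncanonical library were not used.

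The 18698 lines for reference alleles, each with the same counts as its native window, were dropped. Activity used a pseudocount of 1. Tests used edgeR 4.0.16 (quasi-likelihood) in R 4.3.3 on the counts, with 40 columns per line (5 enhancers, 4 RNA and 4 plasmid libraries), each scaled on the median ratio of random elements to their mean plasmid count beside the same enhancer. The 5 columns of a library were treated as separate with no block for the library, which makes p-values too small; limma 3.58.1 on 1 value per library, and a block on the library number, were added alternatives. Elements needed a mean plasmid count of 20 beside all 5 enhancers. Adjustment was Benjamini-Hochberg over all elements or pairs of a fit, with a threshold of 0.05. All replicates share 1 plasmid pool and the same barcodes per construct, so error between barcodes is in no SE. The fits were tested on simulated data. DESeq2 1.42.0 was an alternative, as were other scalings, a higher plasmid minimum, and leaving out each library or enhancer. Values were computed with numpy 2.4.6 and pandas 2.3.3 in Python 3.11.15.

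The windows, lists and tests were chosen with earlier results of these data known. Windows named in full are the 10 with the highest activity in their lowest line, the 5 largest decreases and 5 largest increases of native against scrambled by the mean of the lines, 5 with an alternate-allele version, and 3 on either side of the threshold. No scrambled version failed the test in all 4 lines, so that part of the rule named none. A search for motif letters in the windows was planned and not run, since no genome of the files' build was at hand.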

Additional observations from a re-analysis of the deposited data

Results flagged for a closer look

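In 7 of 180 groups of 4 libraries (named windows by version and line), 1 library lay far from the other 3 by Dixon's test for 4 samples. Chance would pick out about 1 group in 20, a larger share than was found here, so the cases below are a description. In K562, RNA library 1 was the far one at chr4:152020693-152020893 for both the native window (6.31, the others 5.71 to 5.81) and the scrambled version (5.25, the others 4.63 to 4.71). Library 1 also read highest over the 351 windows as a set: median native activity in K562 was 3.71, 3.58, 3.51 and 3.45 in RNA libraries 1, 2, 3 and 4. RNA library 2 was the far one at chr11:62554815-62555015, scrambled, in K562 (2.25, the others 2.09 to 2.11). In SK-N-SH, the native libraries apart were library 3 at chr11:46264854-46265054 (5.15, the others 5.09 to 5.10), library 2 at chr9:100000492-100000692 (3.27, the others 3.16 to 3.17) and library 3 at chr17:14212473-14212673 (2.83, the others 2.72 to 2.73). In HepG2, library 4 was low for the native chr17:31203558-31203758 (1.60, the others 2.05 to 2.10), a window just inside the threshold.

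The reporter RNA of 207 of the 211 scrambled versions differed between the 4 lines by the edgeR F test, where 82.1% of all elements did.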

How the results depend on the processing

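Counts of calls for scrambled and alternate-allele versions against random elements, for alternate-allele against scrambled versions and between lines stayed within 1.5 times their value with a plasmid minimum of 50, other scalings, DESeq2 where it was run, and without each library or enhancer. With 1 value per library (limma, added after seeing the data), alternate-allele versions called against scrambled ones fell to 15 higher and 15 lower in GM12878 and 25 higher in HepG2; the other counts stayed within 1.5 times, with fewer columns in this fit. With summed random counts the median of all elements moved by −0.32, −0.57, −0.91 and −0.68 (GM12878, HepG2, K562, SK-N-SH), and the medians of the 211 scrambled versions became 1.82, 2.52, 2.70 and 2.61. The number of windows meeting the rule ran from 255 with a plasmid minimum of 50 to 408 with random and negative control elements as zero, and from 345 to 361 when 1 library was left out. The median of native minus scrambled over lines (0.0623) moved to 0.0752 with the minimum of 50, 0.0823 without En02, 0.0792 without En09, 0.0837 without En11 and 0.0933 without En21. It ran from 0.0546 to 0.0770 when 1 library was left out. The cause was not tested. With the benchmark headings taken literally, an alternative added after seeing the data, 0 of 40 pairs of the 2 windows were higher in run1 and 0 of 40 in run2, since every sign turns. Scrambled versions turned sign with summed random counts at chr10:122610613-122610813 in SK-N-SH (−0.226) and at chr11:64420584-64420784 in GM12878 (−0.0699), K562 (−0.447) and SK-N-SH (−0.0872), the setting that shifted all elements down. Over 76 named scrambled values, 1412 of 1424 alternatives left direction and call as they were, and 8 lost the call. The column headings number the libraries, but the sample labels do not say that a number pairs them, and deviations of same-numbered libraries correlated between −0.041 and 0.046. A replicate block on these numbers, also added, moved no count by over 1.5 times: for the 211 scrambled versions it called 211, 210, 211 and 211 higher. PCR reads are not independent molecules, and the 4 libraries of a line share barcodes, so SEs cover library error only.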
